A study of Mus musculus with 6 samples.

Results

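The interferon response genes described here are 38 genes, of the 21117 genes in the table, that are known targets or mediators of interferon signalling. They were taken from a fixed list of names and matched by mouse NCBI gene number, with Rigi found under its older symbol Ddx58, and all 38 were present. They comprise 31 genes of the type I interferon response and, set apart from these, 7 GTPases that are best known as targets of interferon gamma. Levels are FPKM, fragments scaled by transcript length and by the number of mapped fragments. They can be compared between genes, but between libraries they are shares that also depend on what else each library holds.

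The RNA came from aortic tissue of 32-week-old mice: 3 samples were wild type (WT), 3 were Fbn1C1041G/+, and all 6 were labelled untreated. Fbn1C1041G/+ mice carry a missense change in a single copy of Fbn1, which encodes the microfibril protein fibrillin-1, and serve as a model of Marfan syndrome. A table of transcript levels does not show the allele itself. The labels give neither the sex nor the strain of the mice, do not name the segment of the aorta, and do not tell if each sample is a mouse of its own. The p-values therefore rest on the spread among 3 samples a group, which may be technical. Smooth muscle markers (Acta2, Myh11, Tagln and Cnn1) summed to 8899 to 11588 FPKM in the 6 libraries, and did not separate the groups. The steps between low FPKM values put the depth of the libraries at 13970000 to 17040000 fragments.

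Type I interferons signal through the receptor chains Ifnar1 and Ifnar2 to the kinases Jak1 and Tyk2, and a complex that holds the transcription factors Stat2 and Irf9 then binds the interferon-stimulated response element (ISRE) in the promoters of target genes. Interferon gamma uses the receptor chains Ifngr1 and Ifngr2, and its direct target genes often carry the gamma-activated sequence (GAS). Cytosolic sensors of RNA and DNA start the production of type I interferon, and many sensors and signalling factors are themselves targets, so the response amplifies itself. Which cells of the aorta expressed the members was not measured in these samples of tissue RNA.

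Promoter sequences show what the members share apart from their names. RefSeq promoters of the GRCm38.p6 build, from 250 bases before to 50 bases after an annotated start site, were available for 28 of the 38 members. The ISRE core, searched on both strands as GAAA, any 2 bases and GAAA again, was found in 18 of these 28 members (64.3%) and in 3.99% of all 27025 genes with a promoter. All 6 GTPases with a promoter held it, as did 12 of 22 type I members. The GAS core, searched as TTCNNNGAA, which reads the same on both strands, was found in 9 of 28 members (32.1%) and in 9.55% of all genes. An ISRE and a GAS match overlapped in Bst2 and in Ifitm3, and where a promoter held several ISRE matches these often shared bases.

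The following sequences, from 110 bases before the start site up to it, were chosen because they hold an ISRE core close to the start and because their genes differ in level and in direction between the genotypes. They are written 5′ to 3′ along the gene with the ISRE matches in capitals.
Isg15 (chr4:156200819-156200928, minus strand): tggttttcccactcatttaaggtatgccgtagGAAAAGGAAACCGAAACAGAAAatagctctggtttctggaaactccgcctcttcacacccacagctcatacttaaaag
Oas1a (chr5:120907526-120907635, minus strand): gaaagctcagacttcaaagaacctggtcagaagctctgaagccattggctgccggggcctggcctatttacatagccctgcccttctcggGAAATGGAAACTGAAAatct
Oas3 (chr5:120777660-120777769, minus strand): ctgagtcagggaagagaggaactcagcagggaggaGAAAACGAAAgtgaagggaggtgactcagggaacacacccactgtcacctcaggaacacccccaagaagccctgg
Ifit1 (chr19:34640779-34640888, plus strand): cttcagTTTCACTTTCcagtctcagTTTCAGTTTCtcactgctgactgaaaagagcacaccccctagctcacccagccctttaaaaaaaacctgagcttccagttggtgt
Gbp2 (chr3:142620553-142620662, plus strand): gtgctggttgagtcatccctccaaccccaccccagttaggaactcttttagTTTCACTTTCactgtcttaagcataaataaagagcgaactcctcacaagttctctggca
Irgm1 (chr11:48871421-48871530, minus strand): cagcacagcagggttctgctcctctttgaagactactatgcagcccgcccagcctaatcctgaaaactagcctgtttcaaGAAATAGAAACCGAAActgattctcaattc

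In Isg15 3 overlapping matches ran from 78 to 57 bases before the start site, in Ifit1 2 separate matches lay 104 to 95 and 85 to 76 bases before it, and in Gbp2 a single match lay 59 to 50 bases before it. The matches of Ifih1, Rigi and Ifitm3 lay after the start site. A match is a string of letters and was not shown to be bound by any factor in these samples.

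**Figure D1:**
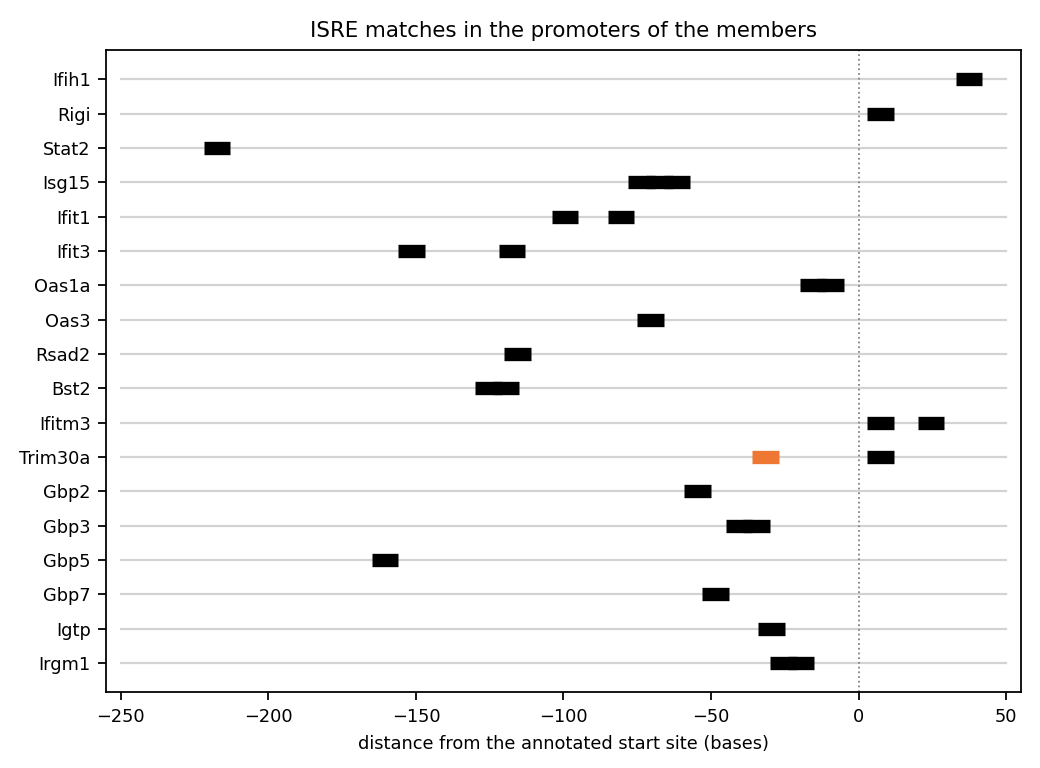
Position of ISRE core matches, in bases from the annotated start site (dotted line), in the promoters of the 18 members that hold one. Black bars are matches, overlapping ones drawn as 1 longer bar, and the orange bar belongs to another annotated start site of Trim30a. The matches of 3 members, Ifih1, Rigi and Ifitm3, lie wholly after the start.

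The design asks which genes differ between Fbn1C1041G/+ and wild-type aortas. No interferon response gene passed the test in either direction, although many type I members, among them Irf7, Oas1a, Oas2, Oas3, Bst2 and Trim30a, had higher values in every mutant library than in any WT library. The members were tested together with all 13438 genes whose mean over the 6 libraries was at least 1 FPKM, by limma on log2(FPKM + 1), with a call at a Benjamini-Hochberg adjusted p under 0.05; fold changes on this scale understate the change of low genes. Of the members 37 were tested, and Mx2, with a mean just under the limit, was not. None of the 37 was called higher, where 0.744% of all tested genes were, and none was called lower, where 4.85% were. The absence of calls does not show that levels were equal.

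Below the threshold, most values lay above 0 in both sets. Of the 30 tested type I members, 25 had a log2 fold change above 0 (83.3%), against 49.2% of all tested genes, and their median was 0.27 against -0.0036 for all tested genes. At an unadjusted p under 0.05, 11 of the 30 were higher in the mutant samples (36.7%), against 4.86% of all tested genes, and 1 was lower, against 10.3%. The groups did not overlap, with the mutant values above, for 10 of the 30 (33.3%), against 6.85% of all tested genes, and with the mutant values below for 2 of the 30, against 13.1%. Oas3, which is in both the 11 and the 10, and Mx1, which is in the 11, passed the filter only through their mutant values. Their WT means were 0.760 and 0.883 FPKM. Of the 7 GTPases 6 had a log2 fold change above 0 (85.7%), and their median was 0.14. None of them passed an unadjusted p under 0.05, and 1 of them, Irgm1, had groups that did not overlap. Whether the type I members and the GTPases differed from each other was not tested, and genes that vary together are not separate observations.

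**Figure D2:**
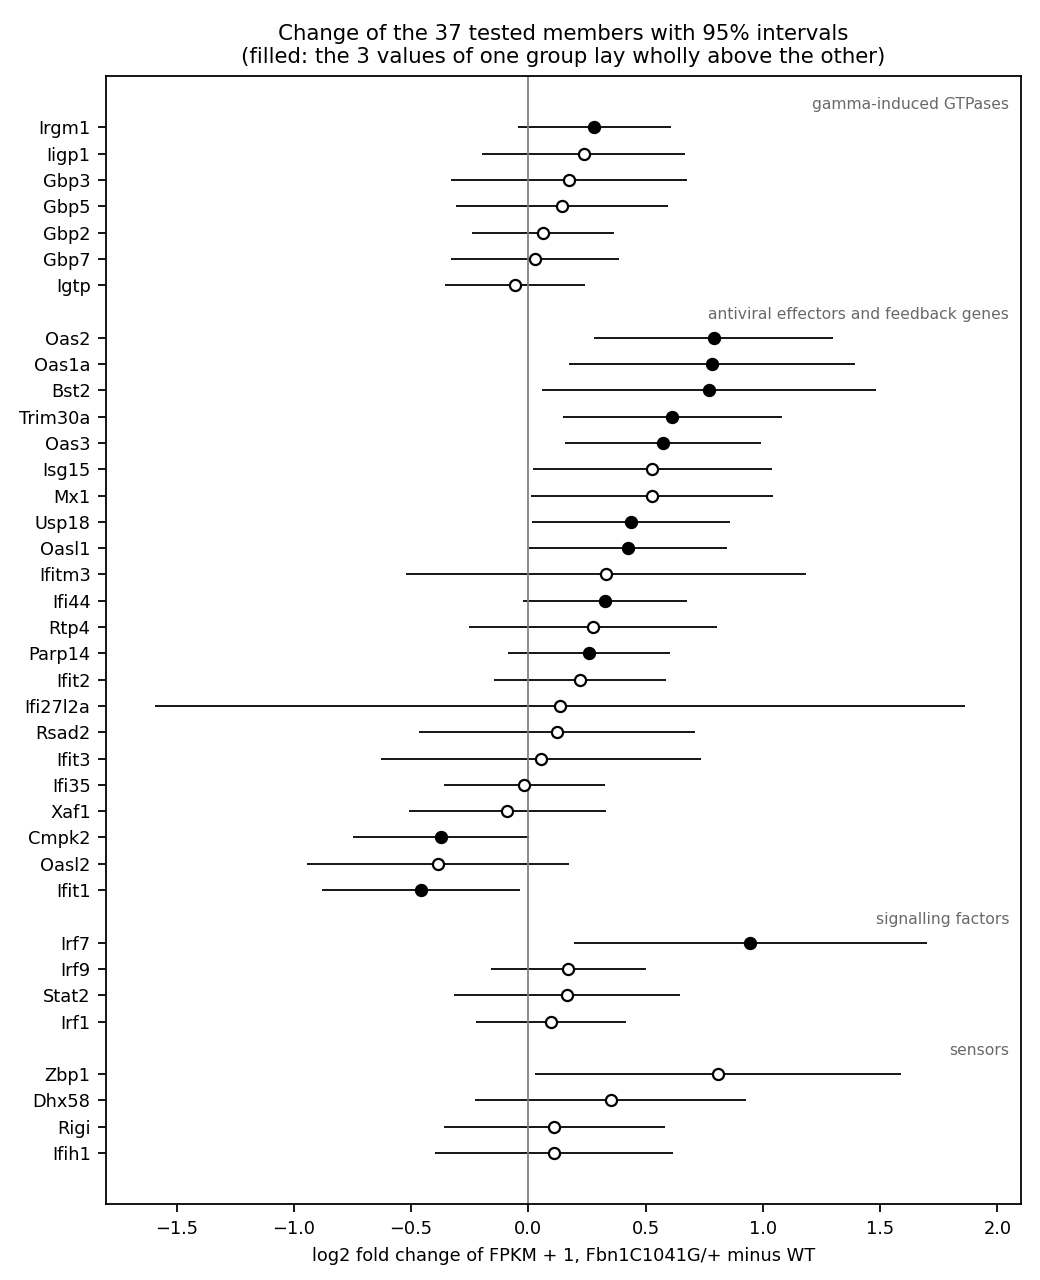
Log2 fold change of FPKM + 1 (Fbn1C1041G/+ minus WT; x axis) of the 37 tested members by role, with 95% intervals of the limma fit; filled points are genes whose groups did not overlap. The type I values spread from -0.46 (Ifit1) to 0.95 (Irf7), and the GTPases stay between -0.06 and 0.28.

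Some leukocyte markers rose in the mutant samples. In limma 3 of 4 monocyte and 3 of 6 pan-leukocyte markers were called higher, and none of the 7 macrophage, 6 T and NK cell, 4 B cell, 4 neutrophil and 1 plasmacytoid dendritic cell markers tested was called in either direction. All 4 monocyte markers (Ly6c2, Ccr2, Fcgr1 and Plac8) and 5 of 6 pan-leukocyte markers were higher in every mutant library than in any WT library. Over all tested genes, 0.744% were called higher and 4.85% lower. The groups did not overlap for 6.85% with the mutant values above and for 13.1% with them below. The summed level of the monocyte list was 12.2 to 15.3 FPKM in the WT libraries and 40.2 to 79.7 FPKM in the Fbn1C1041G/+ libraries, and that of the pan-leukocyte list 50.9 to 63.0 and 96.7 to 254.3 FPKM. The macrophage list, with 2 of 7 markers not overlapping, summed to 143.1 to 240.7 and 212.3 to 620.5 FPKM, the T and NK cell list, with 3 of 7, to 1.89 to 5.24 and 6.32 to 32.3 FPKM, and the B cell list, with 1 of 4, to 2.41 to 8.72 and 8.51 to 54.3 FPKM. Neutrophil markers, 3 of 4 not overlapping, summed to 1.95 to 8.97 and 12.3 to 148.8 FPKM, and the 3 markers of plasmacytoid dendritic cells, a main source of type I interferon, to 0.81 to 0.93 and 0.80 to 5.36 FPKM. No marker on these lists was at 0 in all 6 libraries. Their part in the values of the interferon response genes was not tested, and in such bulk samples more cells of a type and more RNA per cell cannot be told apart. Markers of heart muscle (5 of 5 higher, 135.1 to 342.2 against 9.96 to 24.98 FPKM summed) and of chromaffin cells (4 of 5 lower, 98.2 to 195.6 against 1029 to 1179 FPKM) also separated the groups, while none of 4 smooth muscle, 4 fibroblast and 4 endothelial markers did.

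The libraries of a group also differed among themselves. Within the mutant group, replicate 2 was the lowest library for 22 of the 30 type I members (73.3%), against 23.1% of all tested genes, and it had the lowest sum of the pan-leukocyte, macrophage, monocyte, T and NK cell and B cell lists but the highest of the neutrophil list. Within WT, replicate 2 was the lowest for 19 of the 30 (63.3%), against 35.4% of all tested genes. The median deviation of the type I members from the WT mean, on the log2 scale, was 0.09, -0.13 and 0.03 in WT replicates 1 to 3 and 0.33, 0.11 and 0.34 in Fbn1C1041G/+ replicates 1 to 3. For the pan-leukocyte markers the same values were 0.08, -0.10 and 0.05 in WT and 1.5, 0.76 and 2.0 in the mutant libraries. Mutant replicate 2 was thus close to WT replicate 1 for the type I members, at 0.11 against 0.09, while for the pan-leukocyte median it stood at 0.76 against 0.08. That was not so for every list, since the B cell sum was 8.51 FPKM in mutant replicate 2 and 8.72 FPKM in WT replicate 1. The macrophage median was 0.25 in mutant replicate 2 and 0.34 in WT replicate 3. The T and NK cell median was 0.33 and 0.26 in the same libraries.

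**Figure D3:**
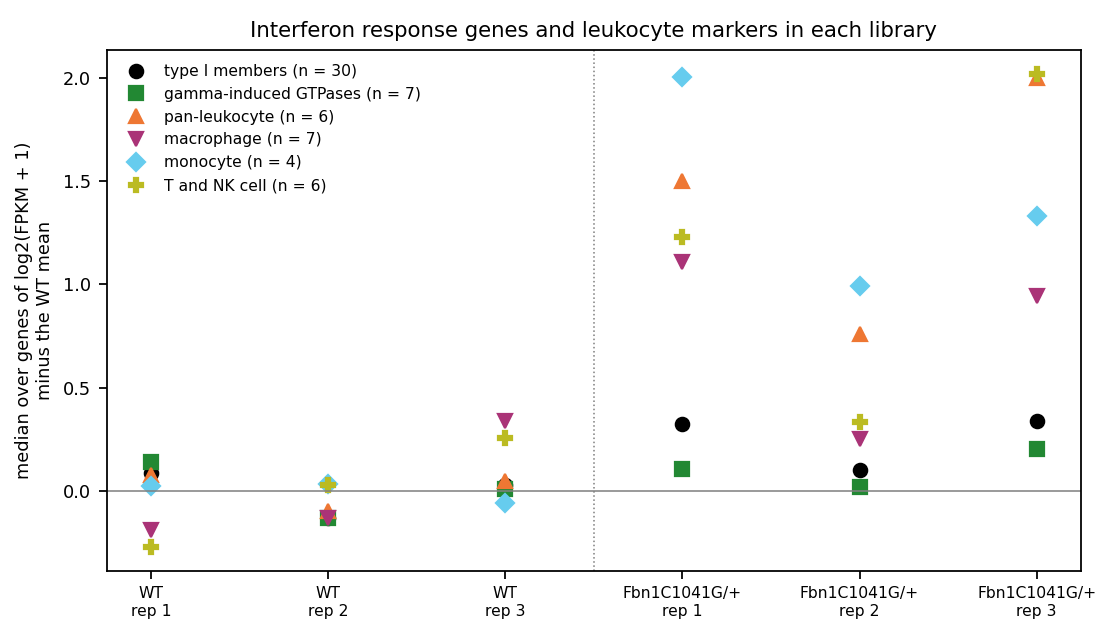
Median over genes of log2(FPKM + 1) minus the WT mean (y axis) in each of the 6 libraries, for the type I members, the GTPases and 4 leukocyte marker lists; n is the number of genes. The leukocyte lists stand at 0.25 to 2.02 in the mutant libraries, and the type I members at 0.11 to 0.34. In WT replicate 3 the macrophage list stands at 0.34 and the T and NK cell list at 0.26.

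Among the sensors, only Zbp1 had an unadjusted p under 0.05. Zbp1, a sensor of Z-form nucleic acid that can trigger cell death, stood at 5.26, 2.83 and 5.29 FPKM in WT replicates 1 to 3 and at 11.7, 4.88 and 9.93 FPKM in Fbn1C1041G/+ replicates 1 to 3. The groups overlapped through mutant replicate 2, and the log2 difference was 0.81 ± 0.33 (SE; adjusted p = 0.303 in limma). The RNA helicases differed less. Ifih1, which encodes MDA5, had means of 2.36 ± 0.826 and 2.57 ± 0.419 FPKM in the respective groups (SD, n = 3 each, WT first), and Rigi, the sensor of short RNA ends, at 7.23 ± 1.62 and 7.84 ± 1.46 FPKM (SD, n = 3 each). Dhx58, which encodes their regulator LGP2, stood at 2.68 ± 0.673 and 3.75 ± 1.28 FPKM (SD, n = 3 each). The 95% intervals of the log2 fold change were -0.40 to 0.62 for Ifih1, -0.36 to 0.58 for Rigi and -0.23 to 0.93 for Dhx58. Changes within the interval of each gene were not resolved.

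Of the signalling factors, Irf7 had groups that did not overlap and the other 3 had overlapping ones. Irf7, the transcription factor that drives the amplifying wave of type I interferon, was measured at 12.1, 10.1 and 8.74 FPKM in the WT libraries and at 34.6, 13.7 and 18.4 FPKM in Fbn1C1041G/+ libraries. All mutant values lay above the WT values, but replicate 1 stood far above the other mutant libraries. The log2 difference was 0.95 ± 0.32 (SE; adjusted p = 0.191 in limma), and it was 0.59 without that library. Irf1, a factor downstream of interferon gamma, stood at 20.9 ± 1.87 and 22.4 ± 1.70 FPKM in WT and mutant samples (SD, n = 3 each), with a 95% interval of the log2 fold change from -0.22 to 0.42. Irf9 and Stat2, which bind the ISRE as parts of a complex, had log2 fold changes of 0.17 and 0.16 and overlapping groups.

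The oligoadenylate synthetases, enzymes whose product activates RNase L, included 3 members with higher values in every mutant library. Oas1a stood at 2.45, 2.79 and 2.19 FPKM in the WT libraries and at 7.02, 3.02 and 5.60 FPKM in Fbn1C1041G/+ libraries. Oas2 stood at 1.61, 1.96 and 2.73 FPKM in the WT libraries and at 5.60, 3.28 and 4.28 FPKM in mutant libraries. Oas3 stood at 0.57, 1.01 and 0.70 FPKM in the WT libraries and at 1.47, 1.40 and 1.99 FPKM in mutant libraries. In each of these genes the groups did not overlap, and the mutant mean was about double the WT mean: 5.21 against 2.48, 4.39 against 2.1 and 1.62 against 0.760 FPKM. The log2 fold changes were 0.78, 0.79 and 0.57, with SE of 0.26, 0.22 and 0.18 and limma adjusted p values of 0.182, 0.104 and 0.152. Their counts were modest, since the estimated depth gives Oas3 about 43.5 to 80.2 fragments in WT and 96.1 to 150.0 in mutant libraries. Oas1a has a near copy, Oas1g, with which reads may be shared, so its level is uncertain. The synthetase gene Oas1b, no member and singled out after its values were seen, had a log2 fold change of 0.16 (adjusted p = 0.747 in limma). Its groups did not overlap either, at 4.32, 3.40 and 4.05 FPKM in the WT libraries and 4.45, 4.58 and 4.38 FPKM in mutant libraries. Oas1a, Oas2 and Oas3 lie on chromosome 5, as do Oasl1 and Oasl2.

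The pair of synthetase-like genes had values on opposite sides of 0. Oasl1, which in mice restrains the translation of Irf7, stood at 1.45, 1.38 and 1.35 FPKM in the WT libraries and at 2.21, 1.66 and 2.89 FPKM in mutant libraries, with no overlap and a log2 fold change of 0.43. Oasl2 stood at 15.5, 14.2 and 17.4 FPKM in the WT libraries and at 17.4, 9.86 and 9.34 FPKM in mutant libraries, where replicate 1 lay at the top of the WT values and the other mutant libraries lay below all of them. Its log2 fold change was -0.39 (limma adjusted p = 0.585). The difference between the pair was not tested.

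Of the 6 tested members with a log2 fold change below 0, Ifit1 and Cmpk2 had groups that did not overlap. Ifit1, which binds foreign RNA ends, stood at 9.79, 6.34 and 8.99 FPKM in the WT libraries and at 6.10, 5.17 and 5.95 FPKM in mutant libraries. Every mutant value lay below every WT value, and the log2 difference was -0.46 ± 0.18 (SE; adjusted p = 0.274 in limma). Its neighbours on chromosome 19 did not do the same. Ifit2 stood at 5.30 ± 0.907 and 6.30 ± 0.507 FPKM and Ifit3 at 16.8 ± 6.99 and 16.9 ± 3.87 FPKM in WT and mutant samples (SD, n = 3 each), and both groups overlapped. Ifit3 can share reads with its near copy Ifit3b, so its level is uncertain. Cmpk2, a nucleotide kinase, stood at 6.23, 6.72 and 7.36 FPKM in the WT libraries and at 4.11, 5.03 and 5.98 FPKM in mutant libraries, again with no overlap and a log2 fold change of -0.37. Rsad2, its neighbour on chromosome 12, which encodes the antiviral enzyme viperin, stood at 4.67 ± 1.64 and 5.07 ± 1.09 FPKM (SD, n = 3 each). Ifit1 carries ISRE matches in its promoter as Oas1a and Oas3 do, and of the 18 members with such a match 5 had all mutant values above the WT values and 1 had all of them below. Of the 10 members whose promoter held no match, 3 and 1 did, and over all tested genes the shares were 6.85% and 13.1%.

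**Figure D4:**
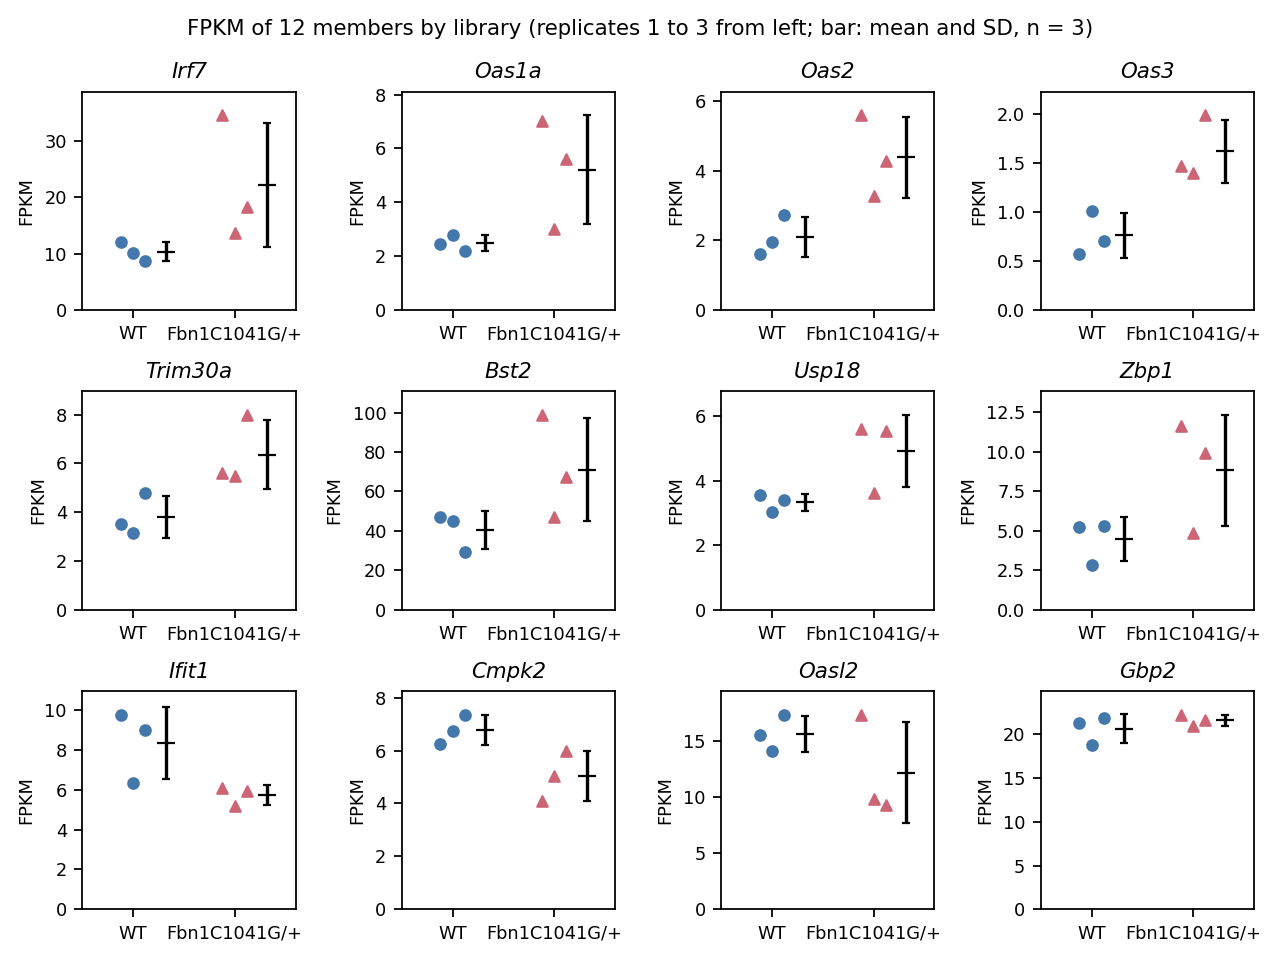
FPKM (y axis, from 0) of 12 members in the 3 WT and 3 Fbn1C1041G/+ libraries, replicates 1 to 3 from left to right, with the mean and SD (n = 3) beside them. The upper 7 genes from Irf7 to Usp18 have all mutant values above the WT values, Ifit1 and Cmpk2 have all of them below, and the values of Zbp1, Oasl2 and Gbp2 overlap.

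Isg15 and Usp18 form a pair in which the first is attached to proteins like ubiquitin and the second removes it and damps the receptor. Isg15 stood at 9.02, 6.59 and 5.54 FPKM in the WT libraries and at 10.8, 8.26 and 12.7 FPKM in mutant libraries. The groups overlapped, with mutant replicate 2 below WT replicate 1, and the log2 difference was 0.53 ± 0.22 (SE; adjusted p = 0.304 in limma). Usp18 stood at 3.54, 3.03 and 3.40 FPKM in the WT libraries and at 5.60, 3.63 and 5.54 FPKM in mutant libraries. Its groups did not overlap, though mutant replicate 2 was only just above the highest WT value, and the log2 fold change was 0.44 (limma adjusted p = 0.306).

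Among membrane and restriction factors, the highest mutant value was that of replicate 1 for Bst2 and Ifitm3 and that of replicate 3 for Trim30a, Mx1 and Mx2. Bst2, or tetherin, which holds budding virus at the cell surface and is also a marker of plasmacytoid dendritic cells, stood at 46.8, 44.9 and 29.1 FPKM in the WT libraries and at 99.0, 47.0 and 67.3 FPKM in mutant libraries. The lowest mutant value exceeded the highest WT value by little, and the log2 difference was 0.77 ± 0.30 (SE; adjusted p = 0.277 in limma). Ifitm3, which blocks the fusion of enveloped virus, stood at 396.4, 285.7 and 298.5 FPKM in the WT libraries and at 737.0, 294.0 and 310.6 FPKM in mutant libraries. Only mutant replicate 1 lay above the WT values, and without it the log2 fold change was -0.10 in place of 0.33. Trim30a, a ring-finger protein that in mice damps inflammatory signalling, stood at 3.50, 3.14 and 4.78 FPKM in the WT libraries and at 5.63, 5.47 and 8.0 FPKM in mutant libraries. Its groups did not overlap, and the log2 difference was 0.61 ± 0.20 (SE; adjusted p = 0.170 in limma). Mx1, a dynamin-like antiviral GTPase, stood at 0.71, 0.65 and 1.29 FPKM in the WT libraries and at 1.26, 1.55 and 2.35 FPKM in mutant libraries, with a log2 fold change of 0.53, while Mx2 stood at 0.940 ± 0.2 and 1.03 ± 0.295 FPKM (SD, n = 3 each) and was not tested.

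The remaining type I members had small or scattered values. Parp14, an ADP-ribosyltransferase, and Ifi44 had mutant values above all WT values, with log2 fold changes of 0.26 and 0.33. Rtp4 had one of 0.28 with overlapping groups. Ifi35 and Xaf1, a partner of an apoptosis inhibitor, had log2 fold changes of -0.02 and -0.09. Ifi27l2a was the most abundant and the most variable member, at 252.7, 433.0 and 1245 FPKM in the WT libraries and at 1411, 279.2 and 457.6 FPKM in mutant libraries. Each group held a single library far above its other libraries, and the 95% interval of its log2 fold change, from -1.59 to 1.86, was the widest of the 37 tested members.

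**Figure D5:**
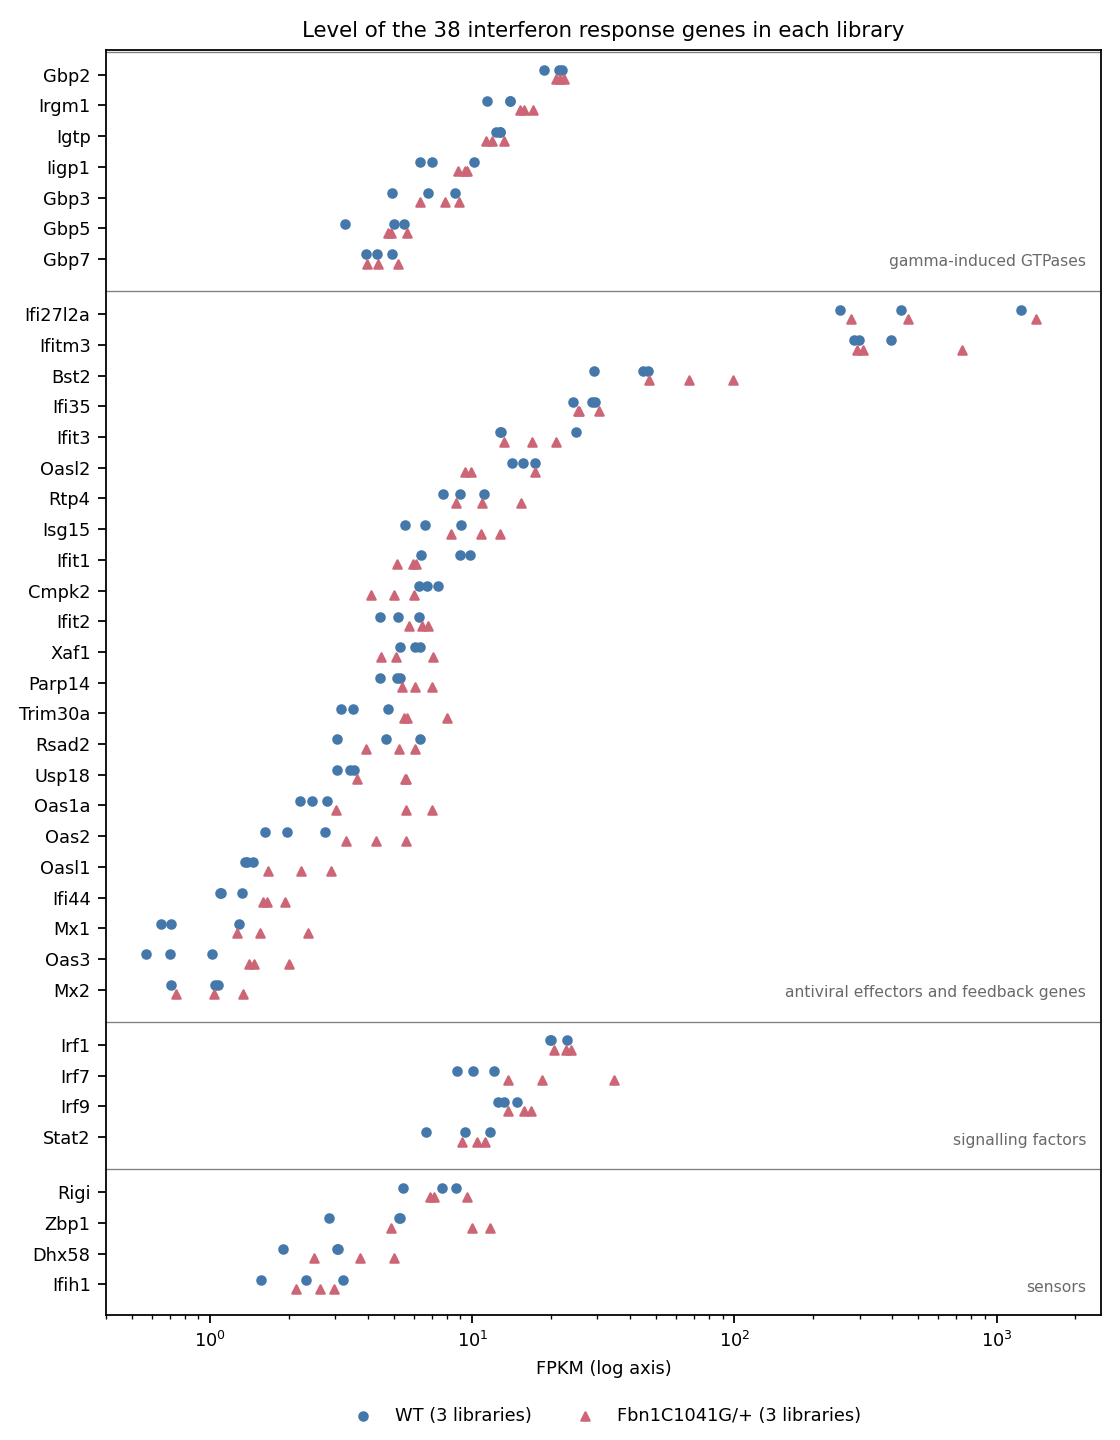
FPKM (log x axis) of the 38 members in the 3 WT libraries (blue circles) and the 3 Fbn1C1041G/+ libraries (red triangles), grouped by role and ordered by mean level within each role. Means run from under 1 FPKM for Mx2 to 387.0 for Ifitm3 and 679.7 for Ifi27l2a, and the values of the 7 GTPases overlap between the groups in all but Irgm1.

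The interferon gamma-induced GTPases had log2 fold changes from -0.06 to 0.28. Guanylate-binding proteins and immunity-related GTPases coat and break the membranes around intracellular microbes. Gbp2 stood at 21.3, 18.8 and 21.9 FPKM in the WT libraries and at 22.3, 20.9 and 21.6 FPKM in mutant libraries, a log2 difference of 0.06 ± 0.13 (SE; adjusted p = 0.918 in limma) with a 95% interval from -0.24 to 0.36. Igtp stood at 12.8, 12.4 and 12.7 FPKM in the WT libraries and at 11.2, 11.8 and 13.2 FPKM in mutant libraries, a log2 fold change of -0.06. In both genes the libraries of the groups interleaved. Irgm1, a regulator of the other immunity-related GTPases, stood at 13.9, 11.3 and 13.9 FPKM in the WT libraries and at 17.1, 15.2 and 15.7 FPKM in mutant libraries, with no overlap and a log2 difference of 0.28 ± 0.14 (SE; adjusted p = 0.432 in limma). Gbp3, Gbp5, Gbp7 and Iigp1 had log2 fold changes of 0.17, 0.14, 0.03 and 0.24 and overlapping groups. The 95% intervals of all 7 lay between -0.35 and 0.68 on the log2 scale. The median of the GTPases was -0.0024 without WT replicate 2 and 0.26 without WT replicate 1, so its sign turned without WT replicate 2 and not without WT replicate 1.

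Beyond the members, 91 genes of the same pathways were looked up in lists of ligands and receptors, signalling genes, other interferon-stimulated genes and other gamma-induced genes; 87 were in the table and 71 were tested. Of these 71, 3 rose, against the 0.744% of all tested genes, and none fell, against 4.85%. The log2 fold change was above 0 for 64 of the 71 (90.1%), against 49.2% of all tested genes. Of the interferon genes looked up, 6 were in the table and all were at or near 0, while Ifna2, Ifna4, Ifnl2 and Ifnl3 were not found in it. Other alpha interferon genes were not looked up. Ifnb1, Ifna1, Ifna5, Ifne and Ifnk were listed at 0 in all 6 libraries, and Ifng was listed at 0 in WT and reached 0.19, 0 and 0.10 FPKM in Fbn1C1041G/+ replicates 1 to 3. None of the 5 tested receptor chains was called. Ifnlr1, a receptor chain for interferon lambda and too low to be tested, stood at 0.61, 0.38 and 0.29 FPKM in the WT libraries and at 0.86, 0.7 and 0.69 FPKM in mutant libraries, with no overlap. Ifnar1 stood at 11.0 ± 2.20 and 11.3 ± 0.236 FPKM and Ifngr1 at 63.2 ± 13.9 and 73.8 ± 9.80 FPKM in WT and mutant samples (SD, n = 3 each), and Ifnar2 and Il10rb differed by 0.17 and 0.09 on the log2 scale.

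The 3 genes that rose were Irf5, Tlr7 and Sp110, and which cells expressed them was not measured. Irf5, a transcription factor downstream of Toll-like receptors, stood at 4.90, 4.81 and 3.67 FPKM in the WT libraries and at 11.4, 8.57 and 10.2 FPKM in mutant libraries, a log2 difference of 1.02 ± 0.16 (SE; adjusted p = 0.0129 in limma). Tlr7, an endosomal sensor of single-stranded RNA, stood at 0.47, 0.66 and 0.95 FPKM in the WT libraries and at 1.98, 1.61 and 2.26 FPKM in mutant libraries, a log2 difference of 0.80 ± 0.18 (SE; adjusted p = 0.0493 in limma). Sp110, a nuclear body protein, stood at 8.26, 6.25 and 7.03 FPKM in the WT libraries and at 12.5, 11.3 and 13.9 FPKM in mutant libraries, a log2 difference of 0.73 ± 0.15 (SE; adjusted p = 0.0377 in limma). All 3 genes had higher values in 3 of 3 mutant libraries than in any WT library. Tlr7, with a WT mean of 0.693 FPKM, passed the filter of 1 FPKM only through its mutant values. The call of Irf5 ended without Fbn1C1041G/+ replicate 1 (adjusted p = 0.0526 in limma) or replicate 3 (0.0641). The call of Tlr7 ended without any single library but WT replicate 3, and that of Sp110 without any 1 of the 6, with limma adjusted p values up to 0.190 and 0.161.

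Of 21 tested signalling genes 2 rose, Irf5 and Tlr7, against 0.744% of all tested genes, and 19 were not called. Irf8, a factor of myeloid and dendritic cell development, stood at 2.82, 2.69 and 2.98 FPKM in the WT libraries and at 8.28, 4.63 and 12.1 FPKM in mutant libraries, and missed the threshold (limma adjusted p = 0.0661). Sting1, the adaptor of cytosolic DNA sensing, had a log2 fold change of 0.63, and Jak1 one of 0.22. Of 33 other interferon-stimulated genes 1 rose, Sp110, against the same share of all tested genes, and 32 were not called. Epsti1, Samhd1 and Ifi203 had log2 fold changes of 1.39, 0.51 and 0.67 with limma adjusted p values of 0.0791 to 0.0924. Samhd1, a nucleotide triphosphatase that restricts virus, stood at 22.8 ± 1.53 and 32.9 ± 2.43 FPKM (SD, n = 3 each) and did not overlap. None of 12 other gamma-induced genes was called in limma, though their median log2 fold change of 0.41 was above the 0.14 of the 7 GTPases. Of the 12 genes 4 were higher at an unadjusted limma p under 0.05, against 4.86% of all tested genes, and none was lower, against 10.3%. They were Tgtp1, Ifi47, Gvin1 and Ciita, the master regulator of class II presentation genes, with log2 fold changes of 0.80, 0.63, 0.70 and 0.83. Ciita, with a WT mean of 0.39 FPKM, passed the filter only through its mutant values. Tgtp1 has a near copy, Tgtp2, and its level is uncertain, while the untested Gbp2b stood at 0.06 FPKM or less in all libraries but Fbn1C1041G/+ replicate 3, where it was 0.88 FPKM. Ifit1bl1, also too low to be tested, stood at 0.52, 0.51 and 0.85 FPKM in the WT libraries and at 0.68, 0.87 and 2.2 FPKM in mutant libraries.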

How the data were processed

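Per the file headers, the authors deposited FPKM to 2 decimals for every gene in a single table, in which 0 sample columns were left unmapped. The submitters' processing notes name the mouse build mm9, while the aligner and the program that estimated FPKM were not given in the sources used here, so the sharing of reads between near copies could not be checked. Gene numbers were paired with symbols through RefSeq (GRCm38.p6; 21059 of 21117 matched); since the builds differ, gene coordinates are not given, and only promoter windows carry positions, in that build. FPKM hold no counts, and no count model was fitted. The depth of each library was estimated from low values of genes with 1 transcript and a known length. At the best depth 74.8% to 77.9% of these values lay within 0.2 of a whole fragment. The median share over the depths tried was 32.4% to 36.0%, and evenly spread values would give 40%. No intervals were computed from the depth estimates.

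Values were compared as log2(FPKM + 1) with limma 3.58.1 in R 4.3.3 (lmFit, eBayes with a trend, 2-sided), over 13438 genes, leaving 7679 under a mean of 1 FPKM, with Benjamini-Hochberg adjustment over all of them; the code was tested on simulated data. Exact permutation of 3 against 3 samples cannot give a 2-sided p under 0.1. The members and lists were chosen with earlier results of these data known, so no p is given for a list. Every member is named; of each pathway list the called genes, the 4 with the smallest p and the first are, and any ligand or receptor may be, as are other genes singled out after their values were seen (Oas1b, Oas1g, Ifit3b, Tgtp2 and Ucp1 with Adipoq). Samples with the same replicate number did not deviate together in every pair (correlations across genes of 0.26, -0.02 and 0.10), so the numbers were not taken as pairs. Identical non-zero values made up at most 1.69% of the genes in any 2 libraries, and all 6 were counted as separate samples. Tables were made with Python 3.11.15 and figures with matplotlib 3.10.9.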

Additional observations from a re-analysis of the deposited data

How the results depend on the processing

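Over 15 alternatives no GTPase was called and no type I member was called lower. Of the type I members, 3 were called higher with sample weights (Mx1, Oas2 and Trim30a), 1 with the replicate number as a block (Zbp1) and 1 without Fbn1C1041G/+ replicate 2 (Oas1a), so the count ran from 0 to 1 when single libraries were left out. The type I median stayed above 0, at 0.17 with a filter at a mean of 5 FPKM to 0.40 without Fbn1C1041G/+ replicate 2, and the GTPase median was -0.0024 to 0.26 with a library left out. Over all genes, 33 were called higher and 349 lower with a filter at 5 FPKM, 285 and 1011 with sample weights, and 37 to 192 and 389 to 751 with a library left out. Quantile normalization and median-ratio scaling raised the median of all genes from -0.0036 to 0.04 and turned the sign of Ifi35 (0.0245 and 0.0253), and sample weights that of Ifit3 (-0.0482). The share of all tested genes with a log2 fold change above 0 was 56.1% with quantile normalization and 55.8% with median-ratio scaling. With a library left out, the log2 fold change crossed 0 for Ifi27l2a (-0.52 to 0.77), Ifi35 (-0.10 to 0.0322), Ifit3 (-0.10 to 0.36), Ifitm3 (-0.10 to 0.56), Rsad2 (-0.10 to 0.33), Ifih1 (-0.0725 to 0.29), Rigi (-0.0556 to 0.23), Stat2 (-0.0299 to 0.34), Xaf1 (-0.25 to 0.0306), Gbp2 (-0.0024 to 0.11), Gbp3 (-0.0087 to 0.34), Gbp5 (-0.0427 to 0.26) and Gbp7 (-0.0592 to 0.10). Of the pathway genes, Tlr7 and Sp110 also lost their call with no filter on low values (limma adjusted p = 0.0635 and 0.0617) and with the block (0.0825 and 0.0573), and Tlr7 with a pseudocount of 0.1 (0.0643). The causes of these changes were not tested. The stricter filter left 9379 genes in place of 13438. Depth limits genes such as Oasl1, Ifi44 and Oas3, with an estimated 40.1 to 150.0 fragments a library, and 3 libraries a group limit every member.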

Other observations

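Near copies of members gave values of their own. Oas1g stood at 0.41, 0.62 and 0.28 FPKM in WT replicates 1 to 3 and at 1.25, 0.87 and 0.98 FPKM in Fbn1C1041G/+ replicates 1 to 3, the direction of Oas1a, and was not tested because its mean was under 1 FPKM. Ifit3b levels were 9.34, 5.03 and 4.76 FPKM in WT and 7.32, 3.68 and 5.22 FPKM in mutant libraries, with the highest value in WT replicate 1 as for Ifit3. The WT library with the highest Ifi27l2a, replicate 3, also had the highest adipocyte markers of all 6. Ucp1 stood there at 1071 FPKM and Adipoq at 852.0 FPKM. Fbn1C1041G/+ replicate 1, with the highest Ifi27l2a of all, had the next highest markers, at 443.9 and 622.7 FPKM. Fbn1C1041G/+ replicate 3, next in Ifi27l2a at 457.6 FPKM, had the next highest Adipoq, at 458.8 FPKM. Its Ucp1 was the lowest of all 6, at 96.3 FPKM. A link between these levels was not tested.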
